A study of Mus musculus with 11 samples.

Results

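The genes described are 38 genes of G2 phase and mitosis, from Mki67, Top2a and the B-type cyclins to the kinesins and kinetochore proteins. They were taken by symbol as known genes of these phases. Measured values formed no part of the rule, but earlier results of these data were known when the genes were chosen. All 38 were found among the 39179 genes of the count table, and all 38 passed the filter on low counts, which kept 14104 genes. RNA came from GFP-positive cells sorted from the V-SVZ, the ventricular and subventricular germinal zone along the lateral ventricles, of CD1/Swiss mice at postnatal day 2. The 6 control libraries had the genotype Gsh2-Cre; Zeb2fl/wt and the 5 mutant libraries Gsh2-Cre; Zeb2fl/ko, and both groups carried the reporter allele RCE, which makes GFP after Cre has acted. Gsh2-Cre is expressed in progenitors of the lateral ganglionic eminence and their descendants, so the controls also recombine their floxed allele there and keep 1 wild-type allele. In the mutants the ko allele is carried by all cells, not just by this lineage. Zeb2 encodes a zinc-finger transcription factor. The labels do not say whether each library is 1 mouse or a pool, so a p-value reflects how these libraries vary, which may be technical in part.

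A cell enters mitosis when cyclin B and the kinase Cdk1 become active together. Chromosomes then condense, kinetochores attach them to spindle microtubules, and the checkpoint holds the cell until every chromosome is attached. The anaphase-promoting complex marks cyclin B for destruction, the sister chromatids part, and cytokinesis splits the cell. Most of these genes are transcribed in a wave in late G2, under the MuvB complex with B-Myb and FoxM1, which acts through promoter elements called the cell cycle genes homology region (CHR) and through CCAAT boxes bound by NF-Y. In the newborn V-SVZ the dividing cells include radial glia, transit-amplifying progenitors and migrating neuroblasts, the immature neurons that they form.

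The libraries held 6833981 to 13073505 counts each and 16836 to 18649 detected genes. They differed in several ways beside genotype. Y-linked counts were 763 to 2716 in controls 1, 2, 3 and 6 and 0 in controls 4 and 5 and in all 5 mutants, so sex and genotype were partly confounded. Long transcripts ran high in controls 2, 3 and 5 and in mutants 1, 3 and 4. There the median log2 level of the longest sixth of genes, relative to the control mean, was 0.09 to 0.22. The same median was -0.22 to -0.05 in the other 5 libraries. The abundant transcript Gm42418 took 6.25% to 12.2% of the counts. Zeb2 itself was counted at 152 to 285 CPM (counts scaled to a common library total) in controls and 202 to 373 in mutants, and whole-gene counts of this kind do not check the genotype.

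Mitosis genes were lower as a group in the mutant libraries. Their summed level was 1559, 2197, 1763, 1754, 1622 and 1352 CPM in controls 1 to 6, and 1163, 1322, 874.3, 1364 and 1123 CPM in mutants 1 to 5. The mutant mean of 1169 ± 194 CPM (SD, n = 5) was 68.5% of the control mean of 1708 ± 283 (SD, n = 6). The ranges met only through mutant 4, which lay just above control 6. CPM values here are scaled by the library's total count, whereas fold changes come from edgeR's fit on libraries scaled by the TMM method.

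**Figure D1:**
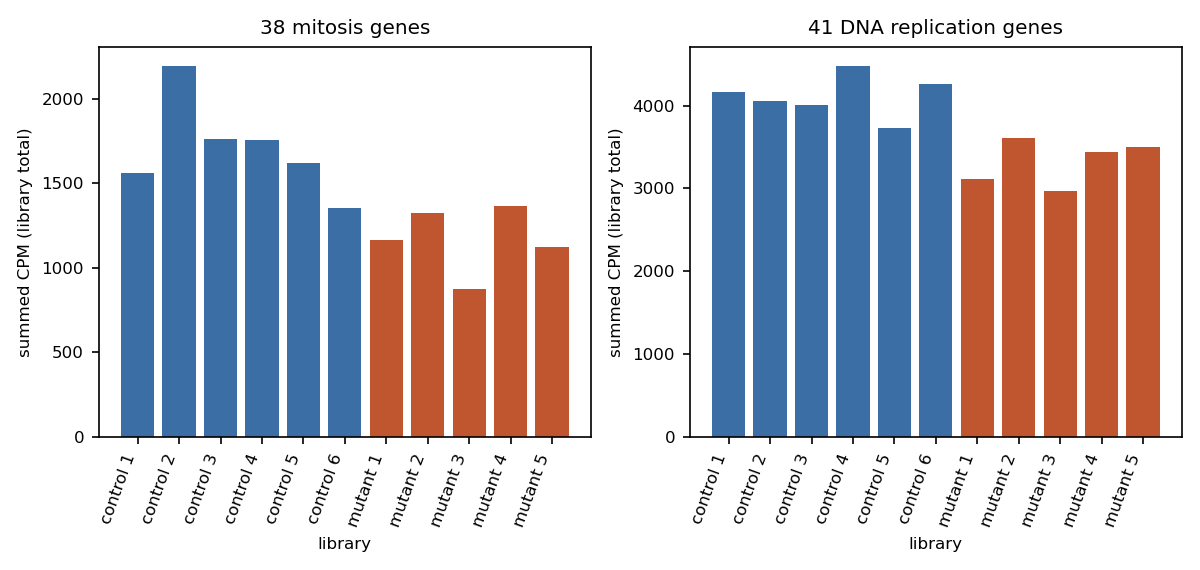
Summed level of the 38 mitosis genes (left) and of 41 DNA replication genes (right) in each library, in CPM of the library total, with 1 bar per library. Mitosis sums ran from 1352 to 2197 in controls and from 874.3 to 1364 in mutants, and replication sums from 3736 to 4484 and from 2964 to 3610.

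Of the 38 genes, 4 fell past the threshold of 0.05 on the adjusted p (edgeR's quasi-likelihood test, Benjamini-Hochberg over 14104 genes): Kif2c, Cdk1, Cdca3 and Ccnb1. Over all genes tested, 1.74% fell by the same rule. By edgeR 0 rose, against 2.68% of all genes. At an unadjusted p under 0.05, 0 of 38 were on the higher side, as in DESeq2 and limma-voom. Over all 14104 genes 1264 were, by edgeR. On the lower side edgeR had 21 of 38, where the share over all genes was 8.35%. The log2 fold change was below 0 in 34 of 38 genes, against 52.2% of all genes tested. Its median was -0.54, against -0.02 over all genes tested. All 5 mutants lay below all 6 controls for 5 genes, the 4 that fell and Aurkb, against 2.32% of genes tested. The sample holds many cell types, so fewer cells in G2 or M phase and less of each RNA per such cell cannot be told apart.

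**Figure D2:**
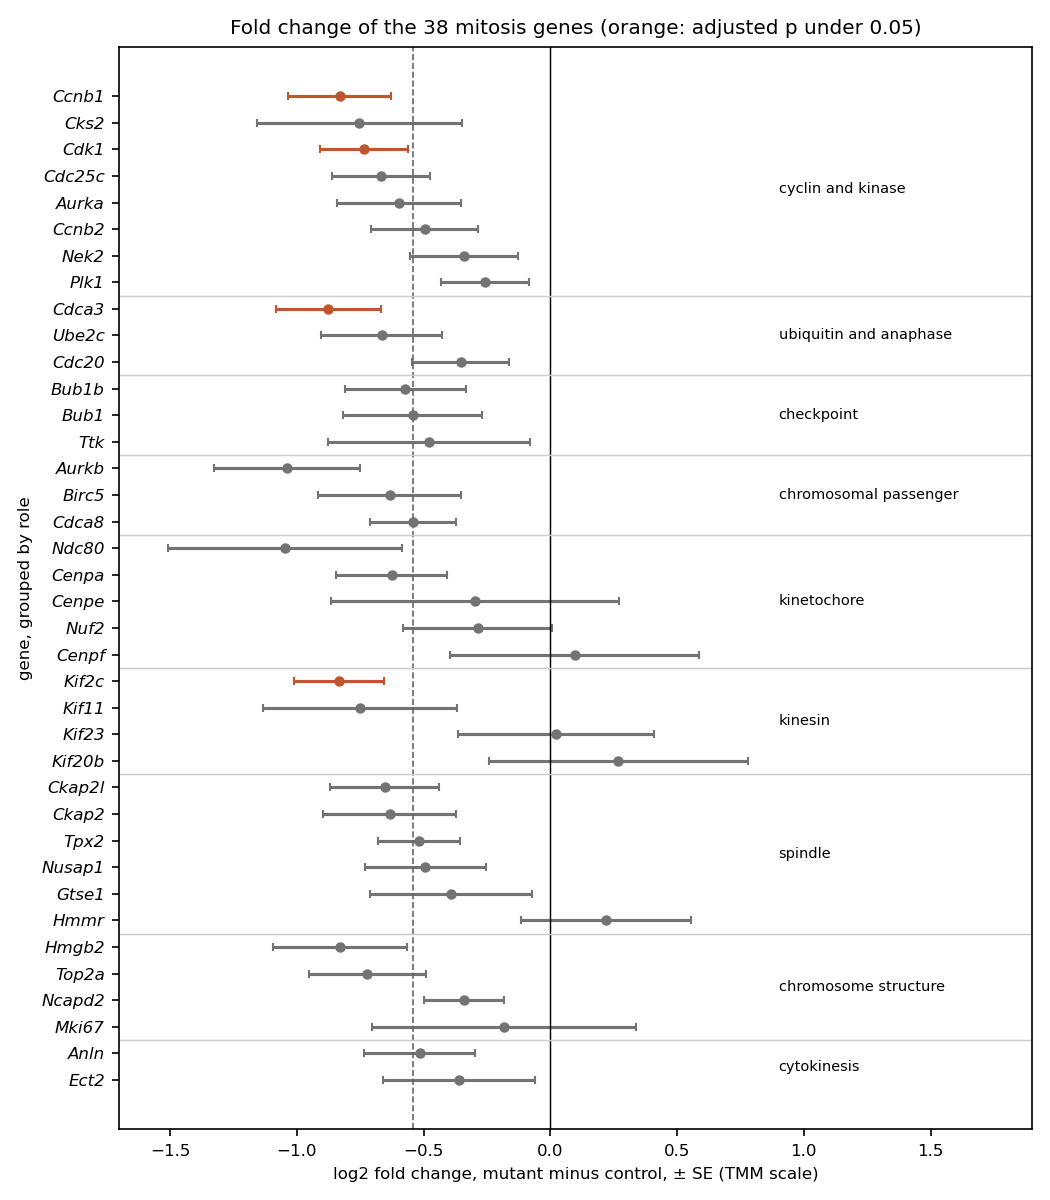
Log2 fold change (mutant minus control, edgeR, TMM scale) of each of the 38 mitosis genes, grouped by role, with its standard error as whiskers and their median as a dashed line. The genes ran from -1.05 (Ndc80) to 0.27 (Kif20b), and 34 of 38 lay below 0.

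The calls differed with the libraries compared. Among the 7 libraries without Y-linked counts (controls 4 and 5 against 5 mutants), edgeR called 0 of 38 genes, against 0.456% of genes lower over all tested. At an unadjusted p under 0.05, 13 of 38 were on the lower side, against 740 of the 14897 genes tested there. The median log2 fold change was -0.56. With Y-linked counts as a covariate edgeR also called 0, against 0.468% of genes lower over all tested. Here 11 of 38 had an unadjusted p under 0.05 on the lower side, against 727 of 14104 genes, and the median was -0.55. With other tools and all 11 libraries, DESeq2 called 10 of the 38 genes lower, against 3.31% of all genes, and limma-voom 6, against 1.74%. The part of sex in the called differences was not tested beyond these fits. Kif2c passed whichever 1 of the 11 libraries was left out, while Cdk1 passed in 6, Cdca3 in 5 and Ccnb1 in 4 of the 11 such fits. The count was 1 without control 1, 2 or 4 or without mutant 3, and 2 without mutant 5. The median stayed between -0.64 and -0.48 in all 11.

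**Figure D3:**
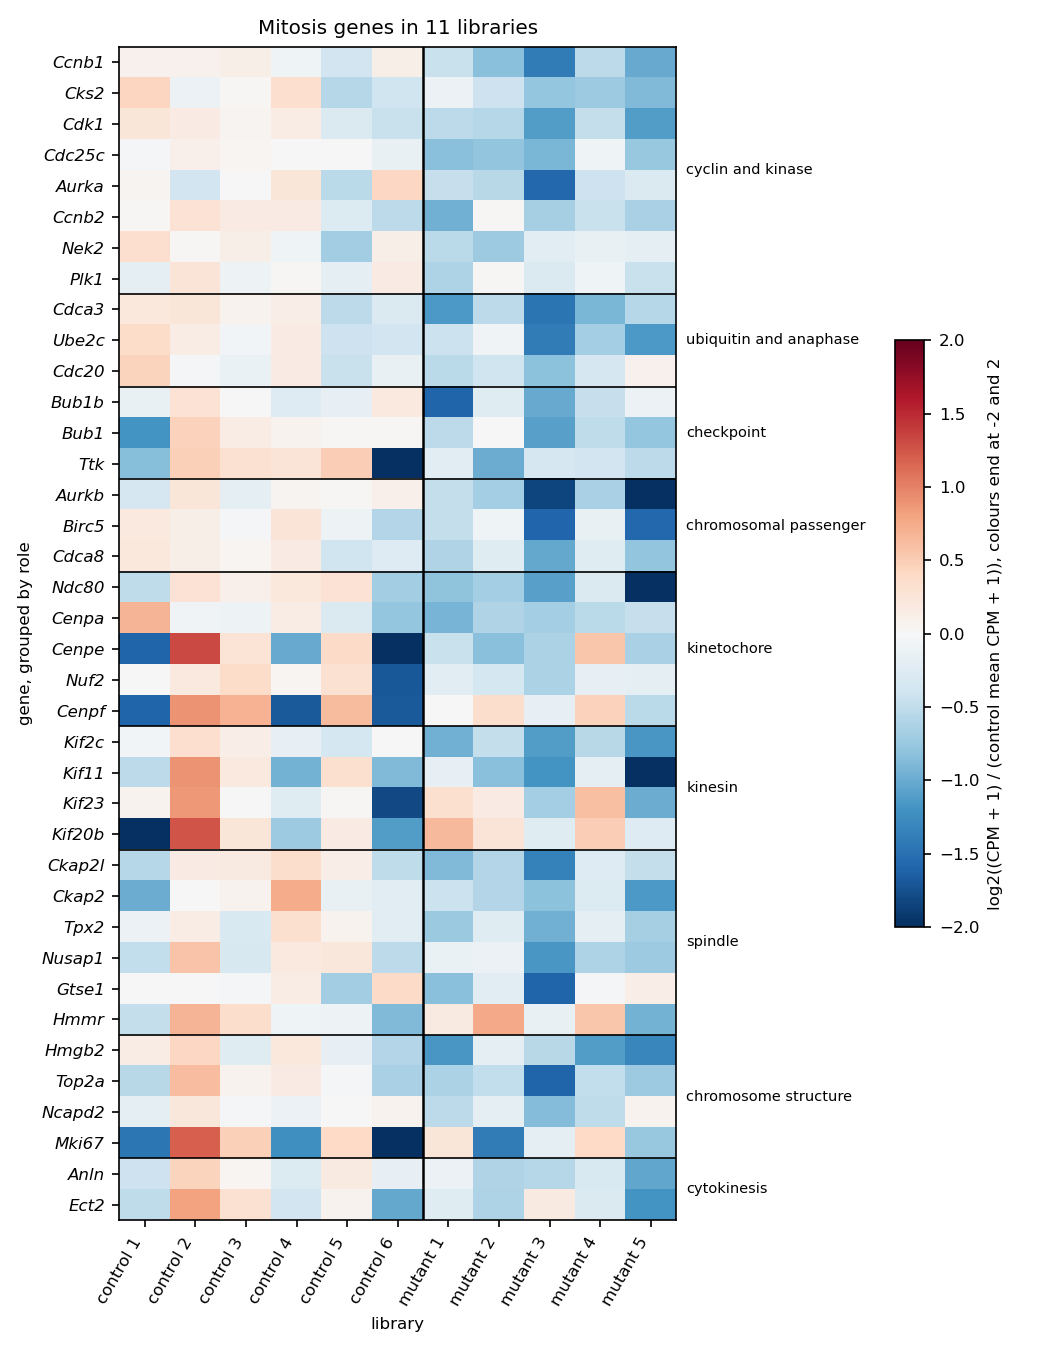
Level of each mitosis gene in each library, as log2 of (CPM + 1) over (mean control CPM + 1), with genes in rows grouped by role, libraries in columns and colours that end at -2 and 2. Control 2 was the highest library for 21 genes, and mutants 3 and 5 were the lowest for 14 and 11.

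The promoters of the genes that fell are shown because these genes are textbook targets of the late G2 wave, with Kif23 and Cenpf, the 2 genes with the largest adjusted p, for comparison. Each runs from 250 bases before to 50 after the RefSeq start, 5′ to 3′ on the gene's strand, in build GRCm38.p6. Capitals mark the CHR letters (TTTGAA or its complement TTCAAA, and TTCGAA) and the CCAAT box (CCAAT or its complement ATTGG).
Kif2c (chr4:117178723-117179022, minus strand): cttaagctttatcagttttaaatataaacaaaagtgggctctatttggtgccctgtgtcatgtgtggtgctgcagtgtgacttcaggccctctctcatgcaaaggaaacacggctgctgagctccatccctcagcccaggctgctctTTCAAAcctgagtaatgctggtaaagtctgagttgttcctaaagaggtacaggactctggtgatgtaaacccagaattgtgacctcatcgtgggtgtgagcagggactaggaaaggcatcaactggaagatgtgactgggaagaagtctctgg
Cdk1 (chr10:69352863-69353162, minus strand): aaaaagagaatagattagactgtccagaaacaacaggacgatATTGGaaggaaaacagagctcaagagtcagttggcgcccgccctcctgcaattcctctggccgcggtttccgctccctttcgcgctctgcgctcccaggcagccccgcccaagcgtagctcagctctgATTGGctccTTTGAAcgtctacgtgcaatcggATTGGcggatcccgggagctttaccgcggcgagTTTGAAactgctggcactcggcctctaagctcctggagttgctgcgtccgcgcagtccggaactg
Cdca3 (chr6:124829926-124830225, plus strand): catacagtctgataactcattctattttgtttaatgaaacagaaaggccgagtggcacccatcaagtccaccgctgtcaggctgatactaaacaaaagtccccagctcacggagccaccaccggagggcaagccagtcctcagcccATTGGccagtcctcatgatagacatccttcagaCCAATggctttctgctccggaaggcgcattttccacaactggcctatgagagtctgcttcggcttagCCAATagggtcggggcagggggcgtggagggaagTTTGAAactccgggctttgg
Ccnb1 (chr13:100786437-100786736, minus strand): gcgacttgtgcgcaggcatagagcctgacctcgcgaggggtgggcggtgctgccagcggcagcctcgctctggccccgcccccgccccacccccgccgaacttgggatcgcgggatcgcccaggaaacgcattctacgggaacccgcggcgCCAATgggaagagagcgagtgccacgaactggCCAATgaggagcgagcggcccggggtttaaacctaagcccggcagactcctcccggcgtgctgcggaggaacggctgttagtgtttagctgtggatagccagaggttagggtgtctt
Kif23 (chr9:61946750-61947049, minus strand): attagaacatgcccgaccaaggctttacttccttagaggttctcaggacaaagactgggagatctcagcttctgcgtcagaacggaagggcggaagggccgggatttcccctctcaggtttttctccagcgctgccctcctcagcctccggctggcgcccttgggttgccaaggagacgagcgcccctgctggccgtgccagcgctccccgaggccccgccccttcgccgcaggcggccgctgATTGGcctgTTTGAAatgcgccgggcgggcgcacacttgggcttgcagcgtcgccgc
Cenpf (chr1:189688037-189688336, minus strand): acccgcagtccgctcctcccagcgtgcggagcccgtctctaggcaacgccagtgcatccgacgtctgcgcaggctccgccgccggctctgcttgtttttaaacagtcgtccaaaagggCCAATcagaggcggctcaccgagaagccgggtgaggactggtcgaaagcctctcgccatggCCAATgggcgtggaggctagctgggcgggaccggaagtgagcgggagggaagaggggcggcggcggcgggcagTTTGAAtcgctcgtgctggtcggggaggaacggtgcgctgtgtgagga

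Cdk1 held TTTGAA at 71 and 15 bases before its start and ATTGG 3 times. Cdca3 held TTTGAA 30 bases after its start, with CCAAT 4 and 71 bases before it and ATTGG 104 bases before it. Its RefSeq start lies inside the GENCODE span of the gene. Ccnb1 held CCAAT at 99 and 67 bases before the start, and the CHR letters searched for are not in its window. Forms of the CHR with other letters were not searched for, so its window may hold such a form. Kif2c held TTCAAA 103 bases before the RefSeq start, which lies inside the longer GENCODE span of the gene, and no CCAAT. Both genes shown for comparison held TTTGAA 2 bases after the start and at least 1 CCAAT box, so the letters were present in genes that fell and in genes that did not pass.

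Promoter windows were found for 35 of the 38 genes, and for 27025 genes in all. The CHR letters on either strand were in 27 of the 35 (77.1%), against 21.7% of all genes with a window. Within 50 bases of the start they were in 23 (65.7%), against 6.12%. CCAAT was in 28 (80.0%), against 41.1%, and at least 2 copies were in 22 (62.9%), against 13.3%. A CHR match and a CCAAT match can share at most the base at their edges. These matches describe sequence and show no binding. No window was matched for Aurkb, Cdc25c and Tpx2.

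The 8 genes grouped as cyclins and kinases also include the phosphatase Cdc25c and the Cdk-binding protein Cks2. Together they summed to 189 to 260 CPM in controls and 127 to 187 CPM in mutants, without overlap and at 66.2% of the control mean, and 2 of the 8 fell. All 8 log2 fold changes were below 0, with a median of -0.63.

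Cdk1 (chr10:69335146-69352938, minus strand) encodes the kinase that starts mitosis. Its lowest, median and highest control levels were 47.8, 70.1 and 77.0 CPM, and the mutants had 45.0, 43.5, 29.6, 46.4 and 29.5 CPM. Every mutant was below every control, at 59.5% of the control mean, and mutants 3 and 5 were the lowest. The log2 fold change was -0.74 (SE 0.172, adjusted p = 0.0241, edgeR).

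Ccnb1 (chr13:100778650-100786570, minus strand) encodes cyclin B1, the partner that activates Cdk1. Controls had 18.7, 26.4 and 27.1 CPM (lowest, median, highest), and the mutants 17.9, 13.5, 8.82, 17.0 and 11.9 CPM. The groups did not overlap, although mutants 1 and 4 came close to control 5, the lowest control. The log2 fold change was -0.83 (SE 0.204, adjusted p = 0.0309, edgeR). Of its transcript words of 50 bases, 23.4% also occur in another gene, chiefly the pseudogene Ccnb1-ps, so its count is uncertain. Ccnb2, the second B-type cyclin, stood at 23.3 to 41.7 CPM in controls and 16.9 to 34.5 in mutants and did not pass (log2 fold change -0.50, adjusted p = 0.235).

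Cdc25c encodes the phosphatase that removes the inhibitory phosphates from Cdk1. Controls had 18.3, 20.6 and 22.0 CPM (lowest, median, highest), with the smallest SD relative to its mean (6.09%) of the 38 genes, and mutants had 10.99, 11.4, 10.3, 19.2 and 11.6 CPM. Mutant 4 lay among the controls and the other 4 mutants at 10.3 to 11.6 CPM. The adjusted p was 0.0681, with a log2 fold change of -0.67. Aurka, a centrosome kinase, and Plk1, the polo-like kinase of mitotic entry and spindle assembly, were at 65.4% and 82.7% of the control mean and did not pass. Neither did Nek2, a kinase of centrosome separation (78.0%), or Cks2, a small Cdk-binding protein at under 5 CPM in every library (58.6%). Counts of Cks2, Cdc25c and Plk1 are uncertain, since 29.7%, 11.9% and 10.4% of their words recur in other genes.

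Of the 3 genes for ubiquitin transfer and anaphase, 1 fell. Cdca3 (chr6:124829547-124833701, plus strand) encodes a protein that helps an SCF ubiquitin ligase destroy the Cdk1 inhibitor Wee1. Controls had 45.6, 70.8 and 78.2 CPM (lowest, median, highest), and mutants 29.1, 45.5, 23.2, 34.3 and 44.3 CPM. The highest mutant, mutant 2, was just below the lowest control, control 5. Its log2 fold change was -0.88 (SE 0.207, adjusted p = 0.025, edgeR), and the mutant mean was 53.5% of the control mean.

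Ube2c encodes the E2 enzyme of the anaphase-promoting complex and Cdc20 its mitotic activator. Ube2c ran from 33.4 to 57.9 CPM in controls and from 16.4 to 42.7 in mutants (log2 fold change -0.67, adjusted p = 0.148), and 408 of its 2551 words recur in other genes. Cdc20 ran from 56.0 to 105.1 CPM in controls, and its highest mutant, mutant 5 at 81.7 CPM, was above 4 controls (-0.35, adjusted p = 0.37). Cdc20 exons overlap those of Elovl1 by 53 bases on the opposite strand, and 10.6% of its words recur elsewhere, mainly in Gm7856.

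**Figure D4:**
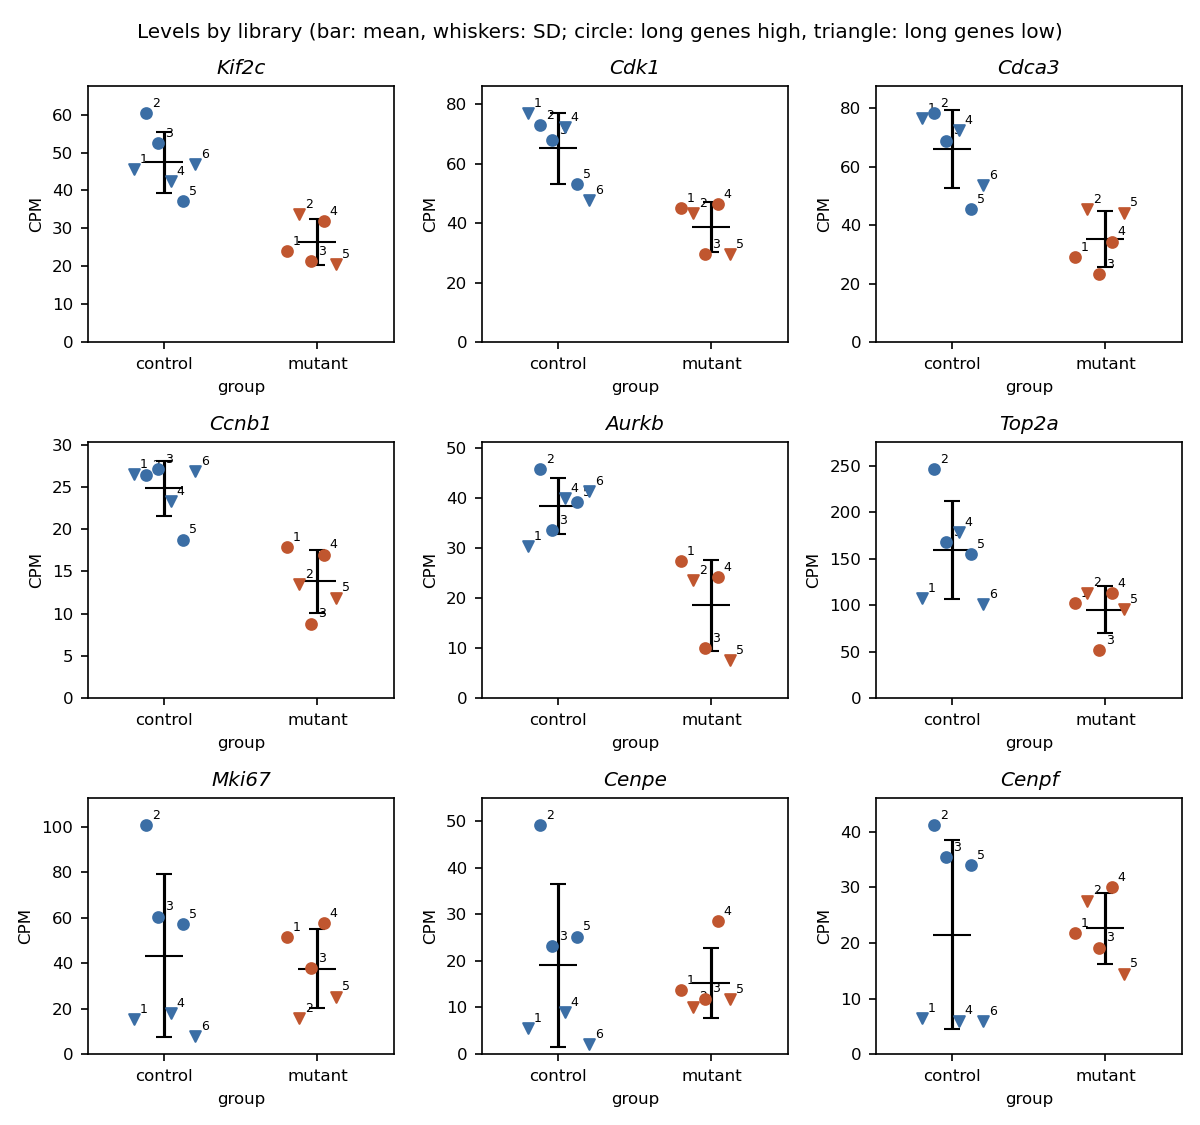
CPM per library of 9 mitosis genes in 6 control and 5 mutant libraries, with 1 numbered point per library (circles where long transcripts ran high, triangles where they ran low), group means as bars and SD as whiskers. Each of the 4 that fell has all mutants below all controls, whereas Mki67 and Cenpf spread widely among the controls.

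None of the 3 genes of the spindle assembly checkpoint passed, and their log2 fold changes lay between -0.57 and -0.48. Bub1b, which encodes BubR1, a part of the complex that blocks Cdc20, had 55.6, 63.7 and 82.2 CPM in controls (lowest, median, highest) and 21.3, 56.4, 33.0, 48.6 and 61.5 CPM in mutants. Mutants 2 and 5 were inside the control range and the other 3 below it (adjusted p = 0.226). Bub1, the kinase that brings the checkpoint to kinetochores, was between 22.7 and 31.1 CPM in 5 controls and at 9.22 CPM in control 1 (adjusted p = 0.33). Ttk, the Mps1 kinase at the top of the checkpoint, was at 3.09 and 9.37 CPM in controls 6 and 1 and at 21.6 to 25.4 CPM in the other 4 controls (adjusted p = 0.597).

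Genes of the chromosomal passenger complex, which corrects faulty attachments and later steers cytokinesis, summed to 136 to 180 CPM in controls and 62.3 to 131 in mutants. This was the role with the lowest share of the control level, 62.2%, and none of its 3 genes passed. Aurkb, the kinase of the complex, had 30.3, 39.5 and 45.6 CPM in controls (lowest, median, highest), and 27.4, 23.6, 10.02, 24.2 and 7.55 CPM in mutants. All mutants were below all controls, but mutants 3 and 5 were far lower than the other 3, and the log2 fold change of -1.04 had an SE of 0.286 (adjusted p = 0.0548, edgeR). Birc5, survivin, was likewise lowest in mutants 3 and 5, at 13.3 CPM each, against 27.3 to 49.8 CPM in controls (-0.63, adjusted p = 0.26). Cdca8, borealin, ran from 60.7 to 93.5 CPM in controls and from 39.0 to 68.0 in mutants (-0.54, adjusted p = 0.0973), and its exons overlap 9930104L06Rik by 232 bases on the opposite strand.

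None of the 5 kinetochore genes passed, with 4 of 5 log2 fold changes below 0. Cenpa, the histone H3 variant that marks centromeres, had 32.0, 52.0 and 89.1 CPM in controls (lowest, median, highest) and 28.6, 36.2, 34.0, 37.9 and 39.8 CPM in mutants. Without control 6 its groups would not meet, and its adjusted p was 0.139. Ndc80 and Nuf2 encode partners in the complex that grips microtubules. Ndc80 was at 7.54 to 16.02 CPM in controls and at 5.55 to 10.3 CPM in mutants 1 to 4, with 0.551 CPM in mutant 5, where only 7 reads were counted (log2 fold change -1.05, SE 0.461, adjusted p = 0.252). Nuf2 was between 23.1 and 30.1 CPM in 5 controls, at 6.45 CPM in control 6 and between 14.6 and 20.5 CPM in mutants (adjusted p = 0.689).

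The other two kinetochore genes, Cenpe, a kinesin that carries chromosomes to the spindle equator, and Cenpf, a large coiled-coil protein, split the controls into separate groups. Cenpf had 6.44, 6.02 and 6.00 CPM in controls 1, 4 and 6 and 41.2, 35.5 and 34.0 CPM in controls 2, 3 and 5. Mutants had 21.7, 27.6, 19.2, 30.1 and 14.5 CPM, all between these groups, and the log2 fold change was 0.10 (SE 0.491, adjusted p = 0.947). Cenpe ran from 2.18 to 49.0 CPM in controls and from 10.2 to 28.5 in mutants (-0.30, adjusted p = 0.849).

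Among the 4 kinesins, 1 fell. Kif2c (chr4:117159639-117182639, minus strand) encodes MCAK, a kinesin that takes microtubules apart at centromeres and so frees wrong attachments. It had 37.1, 46.3 and 60.3 CPM in controls (lowest, median, highest), and 23.9, 33.8, 21.5, 32.0 and 20.6 CPM in mutants. No mutant reached the lowest control, and the mean was 55.5% of the control mean. edgeR gave a log2 fold change of -0.83 (SE 0.176, adjusted p = 0.0128), the smallest adjusted p of the 38 genes.

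The other 3 kinesins did not pass. Kif11, Eg5, which pushes the spindle poles apart, had 23.8, 42.8 and 87.5 CPM in controls (lowest, median, highest) and 41.5, 25.7, 19.7, 41.2 and 9.28 CPM in mutants (log2 fold change -0.75, SE 0.381, adjusted p = 0.332). Kif23, MKLP1 of the central spindle, had 5.00 to 37.2 CPM in controls and 9.60 to 31.0 in mutants (0.02, adjusted p = 0.985). Kif20b, a kinesin of late cytokinesis, had 1.02 to 20.7 CPM in controls and 6.53 to 13.1 in mutants (0.27, adjusted p = 0.849).

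None of the 6 spindle genes passed, with 5 of 6 log2 fold changes below 0. Tpx2, which activates Aurora A and nucleates microtubules around chromosomes, had 90.2, 110.0 and 139.6 CPM in controls (lowest, median, highest) and 66.4, 93.8, 56.7, 97.6 and 70.5 CPM in mutants. Mutants 2 and 4 just entered the control range (-0.52, adjusted p = 0.0938). Ckap2l was at 44.2 to 85.1 CPM against 25.4 to 55.1 (-0.65, adjusted p = 0.113), and its relative Ckap2 at 14.5 to 50.4 against 12.8 to 24.6 (-0.63, adjusted p = 0.225). Both encode microtubule-associated proteins of the spindle. Nusap1, which bundles spindle microtubules, was at 70.0% of the control mean, with exons that overlap Oip5 by 172 bases on the opposite strand. Gtse1, a microtubule protein of G2 and M phase, was at 74.9%, and Hmmr, a spindle-assembly factor also known as a hyaluronan receptor, at 115.4% (0.22, adjusted p = 0.801).

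None of the 4 genes of chromosome structure passed either. Top2a, the topoisomerase that untangles sister chromatids, had 101.0, 161.6 and 246.4 CPM in controls (lowest, median, highest) and 102.0, 113.7, 51.7, 113.0 and 95.5 CPM in mutants. Its groups met only at controls 1 and 6, and the log2 fold change was -0.72 (SE 0.23, adjusted p = 0.1003). Hmgb2, a chromatin protein, was at 14.0 to 28.9 CPM in controls and 8.10 to 19.0 in mutants (-0.83, adjusted p = 0.1003), and 18.7% of its words recur in other genes. Ncapd2, a condensin subunit, was at 170.9 to 230.4 CPM in controls, and mutant 5 at 206.7 CPM lay inside that range while mutant 3 was at 107.1 CPM (-0.34, adjusted p = 0.277).

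Mki67, whose product Ki-67 coats mitotic chromosomes and is a common marker of dividing cells, did not differ beyond its spread. Controls had 7.995, 37.7 and 100.7 CPM (lowest, median, highest), and mutants had 51.5, 15.8, 37.9, 57.7 and 25.3 CPM. All 5 mutants lay inside the control range. The log2 fold change was -0.18 with an SE of 0.52 (adjusted p = 0.904, edgeR). The cytokinesis genes Anln, a scaffold of the contractile ring, and Ect2, which activates RhoA there, were at 69.3% and 77.1% of the control mean, with adjusted p = 0.235 and 0.597.

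The spread among controls was smaller in the genes that fell than in Mki67 and its like. The SD of the 6 controls was 13.2% to 20.2% of the mean in Kif2c, Cdk1, Cdca3 and Ccnb1. It was 91.8% in Cenpe, 88.1% in Kif20b, 83.0% in Mki67 and 79.0% in Cenpf. Genes that did not pass could have as small a spread, such as Cdc25c (6.09%), Ncapd2 (10.6%) and Plk1 (14.0%). The median over the 38 genes was 25.1%, close to the 23.7% over 10990 genes in the same range of levels, of which 1 in 10 exceeded 49.4%. A small spread is one of the things that lets a gene pass, so this order is a description.

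The 4 genes with the widest spread also have the 4 longest transcripts of the 38. Of the 19 genes with a longest transcript above the median of 3378 bp, the median control SD was 34.8% of the mean and 1 fell. Of the other 19 genes, it was 21.7% and 3 fell, where 1.74% of all genes tested fell. By edgeR, 8 of the longer and 13 of the shorter genes had an unadjusted p under 0.05, all on the lower side (8.35% of all genes). The median log2 fold change was -0.49 in the longer and -0.63 in the shorter genes. In 9 of the 38 genes controls 2, 3 and 5, where long transcripts ran high, were all above controls 1, 4 and 6: Ttk, Cenpe, Cenpf, Nuf2, Kif11, Kif20b, Mki67, Anln and Ect2. Over all genes tested 13.3% were so ordered. Mki67 was at 57.4 to 100.7 CPM in controls 2, 3 and 5 and at 7.995 to 17.95 CPM in controls 1, 4 and 6.

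**Figure D5:**
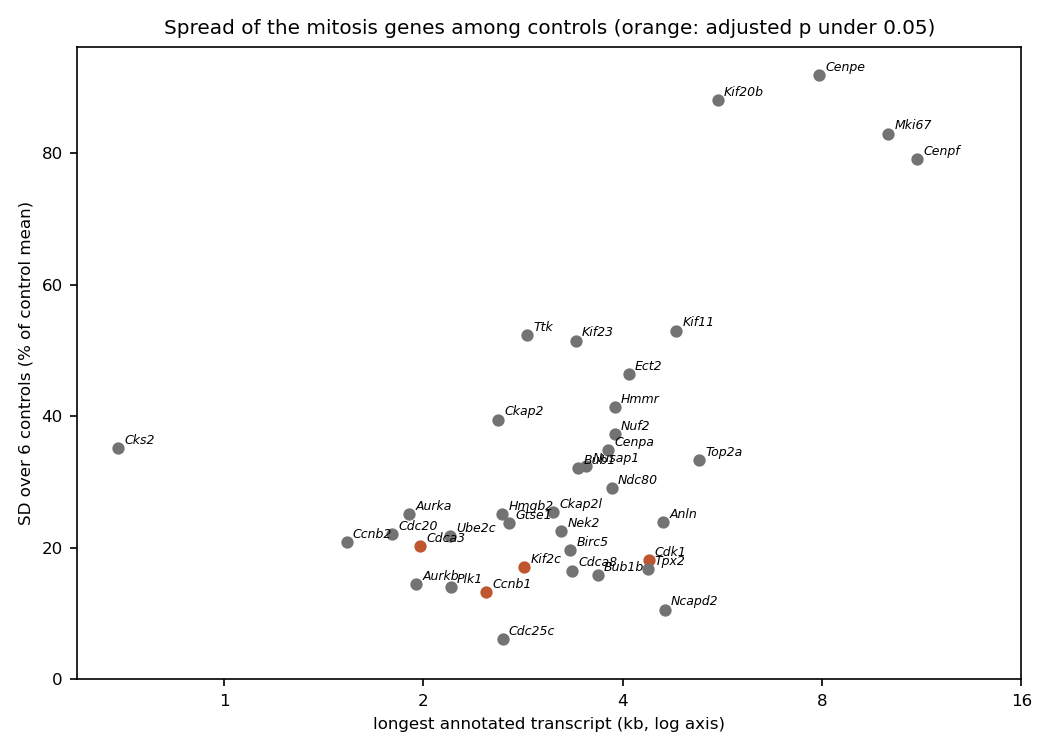
Spread among the 6 controls (SD as a percentage of the mean) against the length of the longest annotated transcript for each of the 38 mitosis genes. Cenpe, Kif20b, Mki67 and Cenpf lie at 79.0% to 91.8%, and the 4 genes that fell at 13.2% to 20.2%.

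Within libraries alike in this respect the picture was not the same. Among the 6 libraries with long transcripts high (3 controls, 3 mutants), all 38 log2 fold changes were below 0, with a median of -0.63. In 23 of 38 genes all mutants lay below all controls, against 11.8% of genes tested, and 3 fell by edgeR (Cdca3, Top2a and Ncapd2), where 1.67% of genes did. Cenpe was then at -0.84, Cenpf at -0.63, Mki67 at -0.56 and Kif20b at -0.32. Among the other 5 libraries (3 controls, 2 mutants), 30 of 38 were below 0 with a median of -0.36, and in 11 genes all mutants lay below all controls, against 16.5% of genes tested. In 3 genes there (Cenpe, Cenpf and Kif20b) all mutants lay above all controls, against 13.4% of genes tested, whereas 0 of 38 did so in the libraries with long transcripts high (11.2%). By edgeR 0 of 38 passed there (0.0766% of all genes fell). At an unadjusted p under 0.05, 5 of 38 were on the lower side and 2 on the higher side. Of the 14364 genes tested there, 703 were on the lower and 1017 on the higher side. Log2 fold changes in these 5 libraries were 1.81 in Cenpf, 1.52 in Kif20b, 1.03 in Cenpe and 0.64 in Mki67. With this division as a term in the fit of all 11 libraries, 35 were below 0 with a median of -0.53 and 5 fell, Aurkb (adjusted p = 0.0493) beside the 4, against 2.3% of all genes. The division was chosen after seeing the data and was made from the levels of long genes in these same counts. The change of sign between its parts in Cenpe, Cenpf, Mki67 and Kif20b is thus not independent of it. Values within the parts are a description, and the difference between the parts was not tested.

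Per length, the order of levels in controls began with Cdc20 at 41.1 RPKM (reads per kilobase of exon at a common library total), followed by Ncapd2 at 31.3, Tpx2 at 23.9, Cdca3 at 23.0 and Ccnb2 at 22.2. It ended with Cenpf at 1.39 and Kif20b at 1.16. Tpx2, Cdca3 and Ccnb2 differed from each other by less than their control SDs.

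Of 112 other G2 and M genes, 111 were tested (Depdc1a was not), 3 fell by edgeR and 0 rose, against 1.74% and 2.68% of all genes, so the share that fell was near the background. At an unadjusted p under 0.05, 34 were on the lower side, against 8.35% of all genes. On the higher side 3 were, against 1264 of all 14104 genes. The log2 fold change was below 0 in 89 of 111, with a median of -0.25. The 112 genes summed to 6609 to 7427 CPM in controls and 5955 to 6591 CPM in mutants, without overlap, at 91.9% of the control mean. In 7 of them all mutants lay below all controls, against 2.32% of genes tested. Espl1, separase, which cuts cohesin at anaphase, went from 24.04 ± 4.72 CPM (SD, n = 6) to 11.8 ± 2.12 (SD, n = 5), a log2 fold change of -1.01 (SE 0.204, adjusted p = 0.00894). Cenpm, of the inner kinetochore, went from 18.9 ± 3.03 to 9.67 ± 1.38 CPM (-0.95, SE 0.197, adjusted p = 0.0108). Spc24, of the Ndc80 complex, went from 27.7 ± 3.16 to 16.2 ± 3.83 CPM (-0.75, SE 0.195, adjusted p = 0.0406). Anapc5, a scaffold subunit of the anaphase-promoting complex and the most abundant gene of the list, did not pass (777.5 CPM in controls, log2 fold change -0.13, adjusted p = 0.688).

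The 41 genes for DNA replication summed to 3736 to 4484 CPM in controls and 2964 to 3610 CPM in mutants, 80.8% of the control mean, without overlap. Of these, 3 fell, against 1.74% of all genes: Mcm3 of the replicative helicase (-0.47, adjusted p = 0.03), Rrm1 of ribonucleotide reductase (-0.42, adjusted p = 0.0438) and Tipin of the replication fork (-0.52, adjusted p = 0.0349). The median log2 fold change was -0.33 and 39 of 41 were below 0. The ratio of summed mitosis to summed replication level was 0.318 to 0.542 in controls and 0.295 to 0.396 in mutants, so it overlapped.

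Markers of other cell types also differed between the groups in part, and their counts stand against the 1.74% of all genes that fell and the 2.68% that rose. All 12 tested markers of oligodendrocyte precursors, which also divide, had a log2 fold change below 0, with 1 of the 12 past the threshold (Gpr17, -1.44, adjusted p = 0.0295), and their sum was 1236 to 2960 CPM in controls, highest in control 6, and 791 to 1548 CPM in mutants. Of 14 transit-amplifying progenitor markers 1 fell (Mfng, -1.21, adjusted p = 0.000915), with sums of 2362 to 3821 CPM against 2601 to 3001. Of 16 radial glia and astrocyte markers 2 fell (Vim and Ednrb) and 1 rose (Hopx), with sums of 1421 to 2636 CPM against 1195 to 2321. Of 14 young-neuron markers 3 rose (Gad2, Rbfox3 and Syt1), with sums of 8266 to 9399 CPM against 8468 to 9358. The log2 fold change was above 0 in 9 of these 14 and below 0 in 5, with a median of 0.21. It was below 0 in 11 of the 14 transit-amplifying markers and in 13 of the 16 radial glia and astrocyte markers. The part of these cell types in the lower mitosis levels was not tested.

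The sorted cells carried their lineage genes, with mean levels in controls and mutants of 808 and 800 CPM for Dlx1, 771 and 715 CPM for Dlx2, and 22.0 and 19.3 CPM for Gsx2. Microglial markers summed to at most 11.1 CPM in any library, erythroid markers to at most 5.41 CPM with Hba-a2 at 0, ependymal markers to at most 17.5 CPM, and vascular markers to at most 48.9 CPM. Choroid plexus markers reached 261.7 CPM in mutant 5 against 41.3 to 103.4 CPM elsewhere. Genes of the dissociation response summed to 495 to 1087 CPM in controls and 626 to 918 CPM in mutants.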

How the data were processed

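Raw read counts per Ensembl gene were deposited by the authors in 1 table of 11 libraries. Per the submitters' processing notes, the tools were TopHat2 2.0.13 and featureCounts 1.4.6, with the mouse builds given as GRCm38 and mm10. Strandedness and the treatment of multi-mapping reads: not given in the sources used here. Symbols and coordinates came from GENCODE M21 (GRCm38) and a table of gene names, for 37693 of 39179 identifiers.

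From these counts, edgeR 4.0.16 in R 4.3.3 tested mutant against control over all 11 libraries (filterByExpr, TMM, robust quasi-likelihood test, Benjamini-Hochberg over 14104 genes, threshold 0.05). All adjusted p-values are from this test unless another tool is named. On simulated data (200 of 13785 genes changed), it recovered 13.8% of 1.5-fold, 49.2% of 2-fold and 76.6% of 4-fold changes. Alternatives used DESeq2 1.42.0 and limma 3.58.1, other scalings and filters, left-out libraries and covariates. Shared 50-base words and exon overlaps came from the annotated transcripts. Depth limits precision, and counting error alone understates the spread between libraries.

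All 38 genes are named, and of the other G2 and M genes those past the threshold and the most abundant up to 4. Of each cell type list, up to 2 with the smallest adjusted p are named. Further ones past the threshold were named after their values were seen. Dlx1, Dlx2 and Gsx2 were named outside this rule, as genes of the sorted lineage. The genes and lists were chosen with earlier results of these data known, so their direction is not independent evidence. Promoters came from RefSeq.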

Additional observations from a re-analysis of the deposited data

Results flagged for a closer look

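Within-group outliers were looked for in the CPM of each of the 38 genes in the 6 controls and in the 5 mutants. Of 76 such groups, 3 held a library beyond Dixon's 95% critical value for its gap, and chance alone flags about 1 in 20 groups. Cdc25c was at 19.2 CPM in mutant 4, while the other 4 mutants were at 10.3 to 11.6 CPM, and the gap to the nearest was 0.854 of the group's range. Cenpe was also high in mutant 4, at 28.5 CPM against 10.2 to 13.7 CPM in the other mutants, with a gap of 0.806 of the range. Nuf2 was low in control 6, at 6.45 CPM against 23.1 to 30.1 CPM in the other controls, with a gap of 0.706 of the range. Mutant 4 also had the highest summed mitosis level of the mutants, and control 6 the lowest of the controls.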

How the results depend on the processing

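The median log2 fold change of the 38 genes was below 0 under every setting run. The number of them past the threshold (4) was 10 with DESeq2, 1 when controls 2 and 6 were left out, and 0 with Y-linked counts as a covariate, in the libraries without Y-linked counts and in those with long transcripts low. It ran from 1 to 6 when 1 library was left out. For the other G2 and M genes (3), the counts in these settings were 17, 1, 0, 0 and 0, with 5 after trends with GC and length were removed, 6 with long transcripts as a term, and 2 to 8 with 1 library left out. For DNA replication (3) they were 6, 1, 0, 0 and 0, with 0 without a filter on low counts and 0 to 4 with 1 library left out. Over all genes (623), they were 1211 with DESeq2, 186 with the covariate, 218 without Y-linked counts, 71 with long transcripts low, and 418 to 656 with 1 library left out. Cause was not tested for any of these; fewer libraries were compared in some.

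Deviations of same-numbered control and mutant libraries from their group means correlated at -0.137 to 0.0207. The highest correlation with a mutant of another number was 0.0171 to 0.119. Pairing by replicate number was thus not seen, but values this small cannot exclude it. With the replicate number as a block (replicates 1 to 5), 3 of the 38 passed, 0 replication genes and 421 genes in all.

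Of the 38 genes, 29 kept the sign of their fold change in all 26 settings and 9 did not. Log2 fold changes with the other sign were, with the covariate, 0.012 (Nek2), 0.041 (Cenpe) and 0.18 (Mki67). Without Y-linked counts they were 0.041 (Nek2) and 0.025 (Mki67), with the block -0.25 (Kif23), and with GC and length trends removed -0.040 (Cenpf). Without controls 2 and 6 Mki67 was at 0.0025, and with limma-voom Cenpe was at 0.20 and Mki67 at 0.16. With long transcripts high they were -0.63 (Cenpf), -0.32 (Kif20b), -0.17 (Kif23) and -0.12 (Hmmr). With long transcripts low they were 1.03 (Cenpe), 0.17 (Nuf2), 0.076 (Ncapd2) and 0.64 (Mki67), and with that division as a term -0.0017 (Kif23). Leaving out 1 library gave -0.10 to 0.38 (Cenpf), -0.19 to 0.28 (Kif23), -0.64 to 0.24 (Cenpe) and -0.40 to 0.25 (Mki67). None of these 9 genes passed in all 11 libraries. The settings on long transcripts, GC and controls 2 and 6 were chosen after seeing the data.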

Other observations

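Of the 10 listed genes for transcription of the G2 and M programme, 0 passed by edgeR, DESeq2 or limma-voom. In edgeR 1 had an unadjusted p under 0.05, on the lower side, where the share over all genes was 8.35%. The log2 fold change was below 0 in 7 of the 10 (median -0.12). Foxm1, the forkhead factor of the wave, was at 30.5 ± 5.95 CPM (SD, n = 6) in controls and 28.2 ± 4.70 (SD, n = 5) in mutants, a log2 fold change of -0.10 (adjusted p = 0.836). Mybl2, which encodes B-Myb, was at 12.3 ± 2.99 and 7.51 ± 3.09 CPM (-0.70, SE 0.279, adjusted p = 0.206). Of the other cyclin and kinase genes, Ccna2, cyclin A2, which acts from S phase to early mitosis, was at 85.8 ± 17.7 and 61.3 ± 6.17 CPM (-0.46, SE 0.151, adjusted p = 0.108). These 3 genes were singled out after their values were seen.

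Among genes with a promoter window, the CHR letters were in 50 of 93 other G2 and M genes (53.8%) and in 6 of 32 replication genes (18.8%). CCAAT was in 61.3% and 65.6%.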
